A study of Mus musculus with 18 samples.

Results

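The imprinted growth regulators examined here are 10 mouse genes whose products promote or restrain growth: Plagl1, Peg3, Igf2, H19, Grb10, Dlk1, Meg3, Mest, Ndn and Nnat. Their members on the array were all probe sets that the platform annotation pairs with 1 of these gene symbols alone. That gave 36 of 45101 probe sets, for 9 of the 10 genes. H19, a maternally expressed non-coding RNA, had 0 such probe sets because its 1 probe set is shared with Mir675, so no level of H19 is given. The signals came from 18 Affymetrix Mouse Genome 430 2.0 arrays of neural precursor cultures from the ganglionic eminence of C57BL/6 embryos of stage E15.5. Cells were grown for 7 days as floating neurospheres, then dissociated, plated and treated. TSA (trichostatin A, a histone deacetylase inhibitor) was given at 50 nM for 6 h (n = 2 arrays) or 24 h (n = 4), BMP2 (a bone morphogenetic protein) at 10 ng/ml for 6 h (n = 2) or 24 h (n = 2), and control cultures were collected at 6 h (n = 2) and 24 h (n = 6). The sources do not say whether arrays of a group came from separate cultures, so p-values measure the spread between arrays, which may be technical, and the small number of arrays limits the precision.

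An imprinted gene is transcribed mainly from a single parental copy, chosen by DNA methylation that is laid down in the germ line and kept through cell division. Imprinted genes form clusters in which paternally expressed genes tend to promote growth of the embryo and several maternally expressed genes restrain it. In mouse, Igf2, Dlk1, Plagl1, Peg3, Mest, Ndn and Nnat are expressed from the paternal copy and H19 and Meg3 from the maternal copy. Grb10 is maternal in most tissues and paternal in neurons. An array signal adds up both copies, so it gives the amount of RNA and says nothing of which copy made it. In a bulk culture, a change in the RNA per cell and a change in the share of cells that make it cannot be told apart.

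The RefSeq windows around the transcription starts (250 bases before to 50 after, GRCm38.p6, written 5′ to 3′ on the gene's strand) are shown for 4 members whose signals moved with a treatment at 24 h: Meg3 at chr12:109540746-109541045 (+), Peg3 at chr7:6730370-6730669 (-), Plagl1 at chr10:13090582-13090881 (+) and Mest at chr6:30737800-30738099 (+). Capitals mark any of 5 short motifs, searched on both strands.
Meg3 promoter: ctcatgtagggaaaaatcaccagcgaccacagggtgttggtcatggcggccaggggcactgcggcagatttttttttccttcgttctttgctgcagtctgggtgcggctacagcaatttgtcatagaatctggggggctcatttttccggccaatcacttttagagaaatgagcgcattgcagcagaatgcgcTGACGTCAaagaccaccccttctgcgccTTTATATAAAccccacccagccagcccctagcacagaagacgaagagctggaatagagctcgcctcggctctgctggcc
Peg3 promoter: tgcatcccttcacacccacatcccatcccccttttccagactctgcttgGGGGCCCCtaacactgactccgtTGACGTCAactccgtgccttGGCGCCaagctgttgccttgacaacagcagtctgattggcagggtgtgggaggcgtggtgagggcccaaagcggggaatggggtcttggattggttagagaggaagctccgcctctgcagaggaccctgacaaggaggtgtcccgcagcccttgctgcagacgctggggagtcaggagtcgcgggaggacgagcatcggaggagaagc
Plagl1 promoter: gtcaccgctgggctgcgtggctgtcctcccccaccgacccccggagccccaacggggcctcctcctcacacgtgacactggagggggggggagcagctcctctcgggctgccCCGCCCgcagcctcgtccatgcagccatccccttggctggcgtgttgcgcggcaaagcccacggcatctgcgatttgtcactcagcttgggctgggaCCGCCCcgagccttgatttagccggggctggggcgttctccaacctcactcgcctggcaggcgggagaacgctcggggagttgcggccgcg
Mest promoter: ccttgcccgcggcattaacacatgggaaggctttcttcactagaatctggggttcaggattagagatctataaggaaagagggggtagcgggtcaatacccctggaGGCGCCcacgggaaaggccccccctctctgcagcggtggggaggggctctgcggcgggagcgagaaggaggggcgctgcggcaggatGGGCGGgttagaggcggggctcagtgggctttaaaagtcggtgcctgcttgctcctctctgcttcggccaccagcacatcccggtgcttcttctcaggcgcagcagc
The Meg3 window holds the cAMP response element TGACGTCA 57 bases before the start and the TATA box TATAAA on both strands, in copies that overlap, starting 29 and 25 bases before it. The Peg3 window holds TGACGTCA 178 bases before the start, the Plagl1 palindrome GGGGCCCC 201 bases before it and the GC-rich Smad element GGCGCC 158 bases before it. The Plagl1 window has 2 GC boxes (GGGCGG), and the Mest window has 1 GC box and 1 GGCGCC. Over all 32851 RefSeq windows of this length, GGGCGG was in 35.7%, TATAAA in 13.6%, GGCGCC in 11.9%, TGACGTCA in 1.79% and GGGGCCCC in 1.08%. Among the 16 windows of the 9 members matched in that table, GGGCGG was in 8, GGCGCC in 3, TGACGTCA in 2, and TATAAA and GGGGCCCC in 1 each. The Mest windows starting at 30737800 and 30737803 overlap almost fully, so the same GC box and GGCGCC match are counted in both. The 4 windows shown hold 13, 13, 26 and 17 CpG dinucleotides, against a median of 7 over all windows. A motif match is only a match of letters.

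Signals were quantile-normalized and are given in arbitrary units, so they compare arrays for a gene and not genes with each other. A probe set was tested where its mean reached 100 in at least 1 group. Of the 36 probe sets 20 were tested, and each of the 9 genes is described by its brightest one unless stated. Log2 fold changes are on the log2(signal + 32) scale, which understates changes of dim genes, and come with the standard error (SE) and the adjusted p of limma (Benjamini-Hochberg over 19439 probe sets, called under 0.05). Igf2 and Dlk1 reached the minimum only on TSA arrays of 24 h, so they had to differ there, their tests involving that group are no support for a difference, and they are counted apart.

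With TSA for 24 h, 6 of the 9 genes rose, namely Meg3, Plagl1, Igf2, Grb10, Mest and Dlk1, and none fell. Over all 10574 genes tested, 18.6% were called higher and 20.2% lower in that comparison. Among the 7 members that averaged 100 or more in a control group, 4 rose, with a median log2 fold change of 1.37 over the 7 and -0.02 over all genes tested. The TSA arrays of 24 h all lay above the control arrays for the 6 genes that rose, as they did for 11.8% of all genes. For Igf2 and Dlk1, tested through this TSA group alone, that separation is no support. Without them it held for Meg3, Plagl1, Grb10 and Mest, 4 of the 7. After 6 h of TSA 0 of 9 passed the test, with 1 (Plagl1) at an unadjusted p under 0.05, beside 14.5% of all genes called higher and 11.8% lower. After 6 h of BMP2 0 of 9 passed and 0 had an unadjusted p under 0.05, beside 1.15% called higher and 0.643% lower. After 24 h of BMP2 Peg3 and Nnat rose and Mest fell, beside 9.98% called higher and 7.76% lower. The BMP2 and control arrays of 24 h did not overlap in 5 members (Peg3, Nnat, Mest, Grb10 and Ndn), beside 31.9% of all genes.

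**Figure D1:**
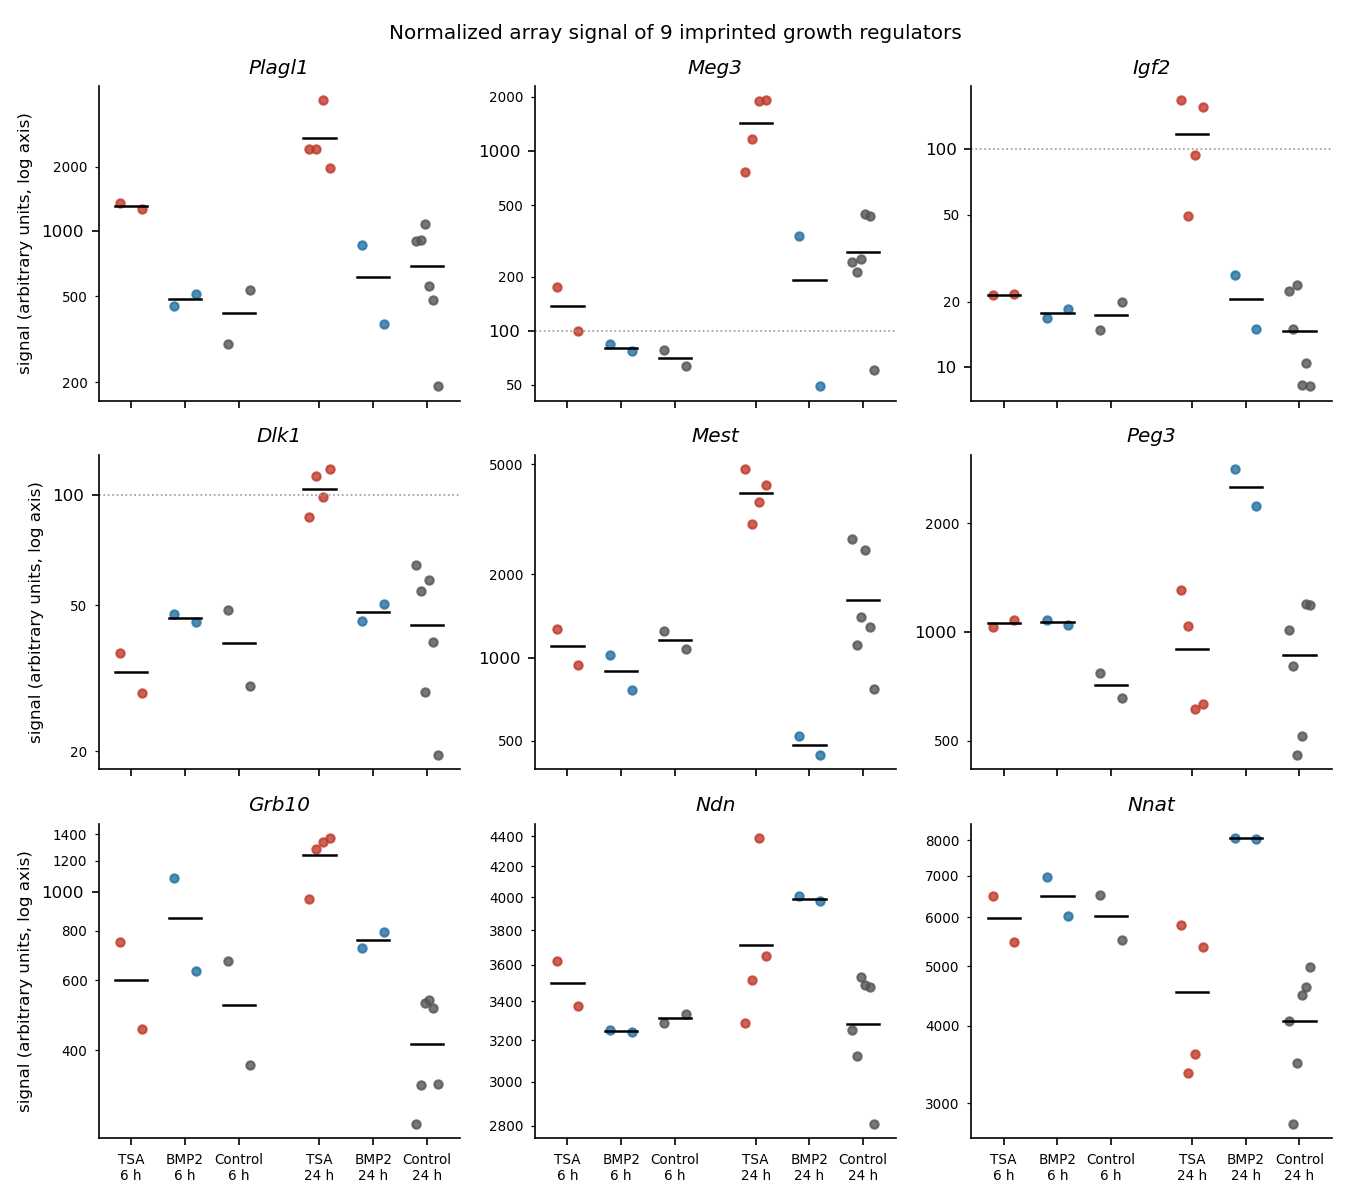
Normalized array signal (arbitrary units, log axis) of the brightest probe set of 9 genes, with a point for each array and a bar at the group mean, for TSA, BMP2 and control cultures at 6 h and 24 h; the dotted line marks a signal of 100. The 4 TSA arrays of 24 h lie above all 6 control arrays of 24 h for Plagl1, Meg3, Igf2, Dlk1, Mest and Grb10, and the 2 BMP2 arrays lie above them for Peg3 and Nnat and below them for Mest.

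Plagl1 (chromosome 10, 13090832 to 13131694) encodes a zinc finger transcription factor that restrains proliferation and regulates other imprinted genes in mouse. After 24 h its signal was 2404, 2416, 4060 and 1980 on the TSA arrays, against a lowest of 191, a median of 732 and a highest of 1080 on the 6 control arrays. The groups did not overlap, and the log2 fold change was 2.06 (SE 0.38, adjusted p = 5.9e-04, limma). At 6 h the signal was 1348 and 1276 on the TSA arrays, against 300 and 535 on the control arrays. These groups did not overlap either, but the log2 fold change of 1.63 (SE 0.58) missed the threshold with an adjusted p of 0.0558 by limma. It was called where only the TSA and control arrays of 6 h were fitted (adjusted p = 0.00621, limma), and in 3 other fits given under the processing alternatives. The TSA effects at 24 h and 6 h differed by 0.43 on the log2 scale, with an interval of 2 SE either side of -0.96 to 1.81. BMP2 arrays of 24 h had 861 and 372 and those of 6 h had 453 and 515, within the range of their controls. The group means ran, high to low, from TSA 24 h (2715) and TSA 6 h (1312) to Control 24 h (688), BMP2 24 h (617), BMP2 6 h (484) and Control 6 h (417), and the last 4 overlapped. Of the 3 Plagl1 probe sets only 1 was tested. The untested ones averaged 98.1 and 46.5 with TSA at 24 h, against 20.5 and 48.8 in controls, so the dimmer signals did not all rise.

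Peg3 (chromosome 7, 6703892 to 6730462) encodes a zinc finger protein that binds DNA and is highly expressed in embryonic brain. Its signal was 2821 and 2228 on the BMP2 arrays of 24 h, against a lowest of 456, a median of 908 and a highest of 1198 on the control arrays. The BMP2 arrays lay above every control array, with a log2 fold change of 1.60 (SE 0.34, adjusted p = 0.00398, limma). A dimmer Peg3 probe set also rose (1.22, adjusted p = 0.00627, limma), and the other tested one did not pass (0.93, adjusted p = 0.17, limma) although its groups did not overlap. TSA arrays of 24 h had 1309, 1036, 613 and 632, which overlapped the controls. At 6 h the signal was 1029 and 1083 with TSA, 1081 and 1047 with BMP2, and 769 and 656 in control cultures. Both treated groups lay above the control arrays there, but neither difference passed the test (0.55 with TSA, adjusted p = 0.38, and 0.56 with BMP2, adjusted p = 1, limma). With the replicate number as a block, for which 2 pairs at 6 h do not settle a pairing, both were called (adjusted p = 0.00119 with TSA and 0.00756 with BMP2), as was TSA where only the groups compared were fitted (0.0117).

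Meg3 and Dlk1 lie in the same imprinted cluster on chromosome 12, Dlk1 at 109452485 to 109463336 and Meg3 at 109540996 to 109571729. Meg3 is a long non-coding RNA with growth-restraining activity, and Dlk1 encodes a membrane protein related to Notch ligands that keeps precursors from differentiating. Meg3 signals at 24 h were 761, 1162, 1884 and 1911 with TSA, against a lowest of 60.4, a median of 246 and a highest of 444 on the control arrays. The log2 fold change was 2.34, the greatest among the members on this log2(signal + 32) scale, which shrinks dim genes (SE 0.45, adjusted p = 8.5e-04, limma). The ratio of the means was 5.21 for Meg3 and 7.93 for Igf2. At 6 h the Meg3 signal was 176 and 100.0 with TSA, 84.3 and 76.6 with BMP2, and 78.4 and 63.5 in control cultures, and no difference passed the test. Dlk1 signals at 24 h were 87.0, 112, 98.5 and 117 with TSA, against a lowest of 19.5, a median of 47.2 and a highest of 64.3 in the controls. The groups did not overlap, and the log2 fold change was 0.86 (SE 0.17, adjusted p = 9.3e-04, limma). Dlk1 was tested through this TSA group alone, so neither is support for a difference. In the other 5 groups no Dlk1 array exceeded 64.3.

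Meg3 varied widely between arrays of a group. Of the 24 h control arrays, replicate 6 had 60.4 and replicates 4 and 5 had 444 and 436, and of the BMP2 arrays of 24 h replicate 1 had 335.3 and replicate 2 had 49.1. The 5 tested Meg3 probe sets followed each other over the 18 arrays, with pairwise Pearson r between 0.89 and 0.99, a description over arrays that share treatments. All 5 rose with TSA at 24 h, by 1.58 to 2.39 on the log2 scale, and 3 of the dimmer ones averaged under 100 in both control groups, so they entered the tests only through treated groups. Only 1 of these dimmer ones had overlapping groups, with 76.1 on TSA replicate 1 against 176 on control replicate 5. BMP2 and control arrays of 24 h overlapped in all 5 probe sets.

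**Figure D2:**
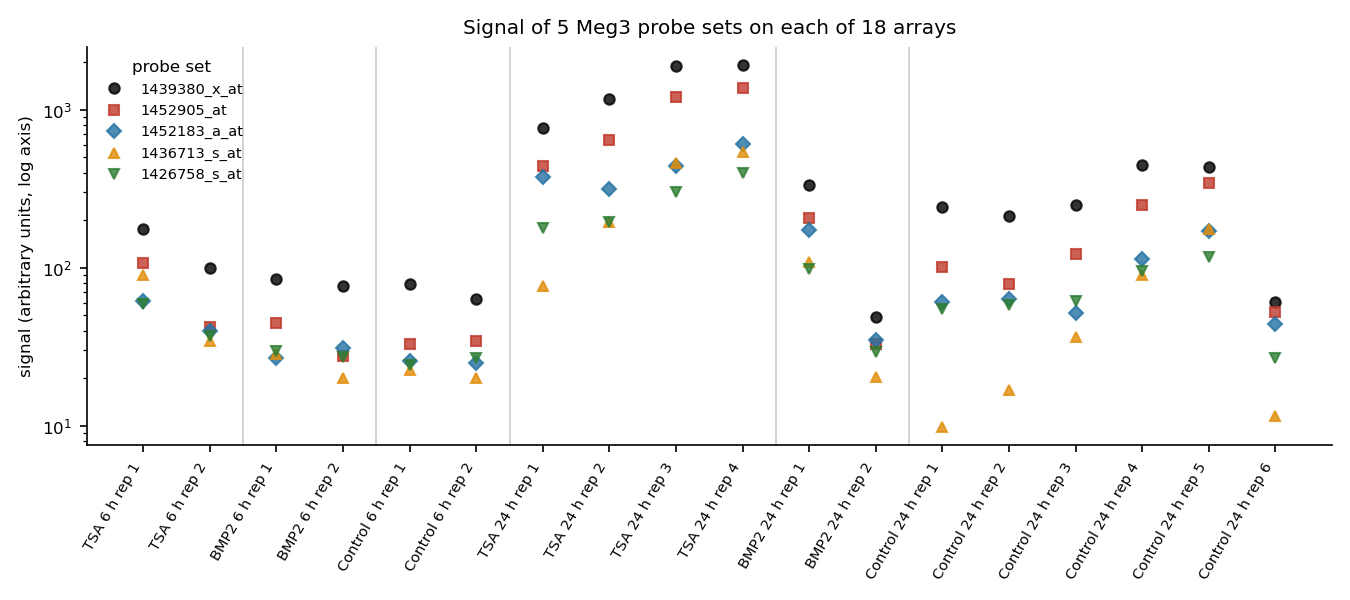
Signal (arbitrary units, log axis) of the 5 tested Meg3 probe sets on each of the 18 arrays, ordered by time with TSA, BMP2 and control arrays in turn. The 5 probe sets move together across arrays, including the low signals of BMP2 24 h replicate 2 and Control 24 h replicate 6, and 4 of them are higher on all TSA arrays of 24 h than on any control array of 24 h.

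Igf2 (chromosome 7, 142650768 to 142666816) encodes the insulin-like growth factor that drives growth of the embryo, and Grb10 (chromosome 11, 11930499 to 12037428) encodes an adaptor that binds the insulin and IGF1 receptors and restrains their signalling. Igf2 signals at 24 h were 167, 49.2, 94.2 and 156 with TSA, against a lowest of 8.18, a median of 12.8 and a highest of 23.9 on the control arrays. On no array outside this group did the Igf2 signal exceed 26.3, so it stood above the minimum of 100 on 2 arrays only, TSA replicates 1 and 4. The log2 fold change was 1.60 (SE 0.21, adjusted p = 3.5e-05, limma), which is no support for a difference, as Igf2 was tested through this TSA group alone. At 6 h Igf2 had 21.3 and 21.7 with TSA and 14.9 and 19.9 in controls. Its TSA effect was larger at 24 h than at 6 h by 1.48 on the log2 scale (SE 0.39, adjusted p = 0.0257, limma). It was the only member called among the 9, beside 11.6% of all genes, and 0 of the other 7 that averaged 100 in a control group were called. Because Igf2 was tested only through TSA at 24 h, the direction of this difference was set by the minimum. That call was lost when any of the 4 TSA or control arrays of 6 h was left out (adjusted p between 0.081 and 0.12). The second Igf2 probe set stayed at 22.1 or less on every array and was not tested.

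Grb10 signals at 24 h were 961, 1282, 1339 and 1369 with TSA, against a lowest of 260, a median of 420 and a highest of 536 on the control arrays. The groups did not overlap, with a log2 fold change of 1.54 (SE 0.23, adjusted p = 1.2e-04, limma). BMP2 arrays of 24 h had 722 and 796, above all 6 control arrays, but the log2 fold change of 0.87 (SE 0.29) had an adjusted p of 0.0539 by limma and was not called. TSA and BMP2 arrays of 24 h differed by 0.67 (0.05 to 1.29 within 2 SE, adjusted p = 0.0991, limma). At 6 h Grb10 had 750 and 452 with TSA, 1087 and 631 with BMP2, and 671 and 367 in control cultures, all overlapping. The dimmer Grb10 probe set reached 100 in mean only with BMP2 at 6 h, and its difference with TSA at 24 h was 0.38 (adjusted p = 0.0693, limma).

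Mest (chromosome 6, 30733506 to 30748466), which encodes a hydrolase-like enzyme of mesoderm and fetal tissues, moved in opposite directions with the 2 agents. Its signal at 24 h was 4798, 3046, 3656 and 4193 with TSA and 520 and 444 with BMP2, against a lowest of 770, a median of 1347 and a highest of 2682 on the control arrays. The 3 groups did not overlap. Mest rose by 1.37 with TSA (SE 0.27, adjusted p = 0.00111, limma) and fell by 1.55 with BMP2 (SE 0.35, adjusted p = 0.00549, limma) on the log2 scale. The direct difference of TSA over BMP2 was 2.93 (SE 0.37, adjusted p = 2.8e-05, limma), or an 8.14-fold ratio of the means. At 6 h Mest had 1271 and 939 with TSA, 1026 and 765 with BMP2, and 1246 and 1073 in control cultures, and no difference passed.

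Ndn (chromosome 7, 62348277 to 62349928) encodes necdin, a MAGE family protein that restrains the cell cycle in neurons, and Nnat (chromosome 2, 157560078 to 157562525) encodes neuronatin, a small membrane protein of the endoplasmic reticulum. Nnat had 8065 and 8050 on the BMP2 arrays of 24 h, against a lowest of 2774, a median of 4287 and a highest of 4989 on the control arrays. The BMP2 arrays lay above all controls, with a log2 fold change of 1.00 (SE 0.21, adjusted p = 0.00407, limma). TSA arrays of 24 h had 5831, 3359, 3600 and 5379, overlapping the controls, and at 6 h all Nnat signals lay between 5478 and 6977. Control arrays had lower Nnat at 24 h than at 6 h (6524 and 5516), a log2 difference of -0.58 that did not pass (adjusted p = 0.127, limma). Between the 2 control times 0 of 9 members were called, with 2 at an unadjusted p under 0.05 (Meg3 and Nnat), beside 4.34% of all genes.

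Ndn differed little between groups. Its group means lay between 3244 (BMP2 6 h) and 3992 (BMP2 24 h). The interval of 2 SE either side of its log2 difference at 24 h was 0.02 to 0.33 for TSA and 0.09 to 0.48 for BMP2. Ndn had 4009 and 3975 on the BMP2 arrays of 24 h, against a highest control of 3534, with an adjusted p of 0.061 by limma. Of its 5 tested probe sets, 1 was called with BMP2 at 24 h (0.33, adjusted p = 0.0458, limma) and 0 with TSA, where 1 dimmer one had an unadjusted p under 0.05 besides the brightest. Their pairwise r over the arrays ran between -0.01 and 0.91.

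**Figure D3:**
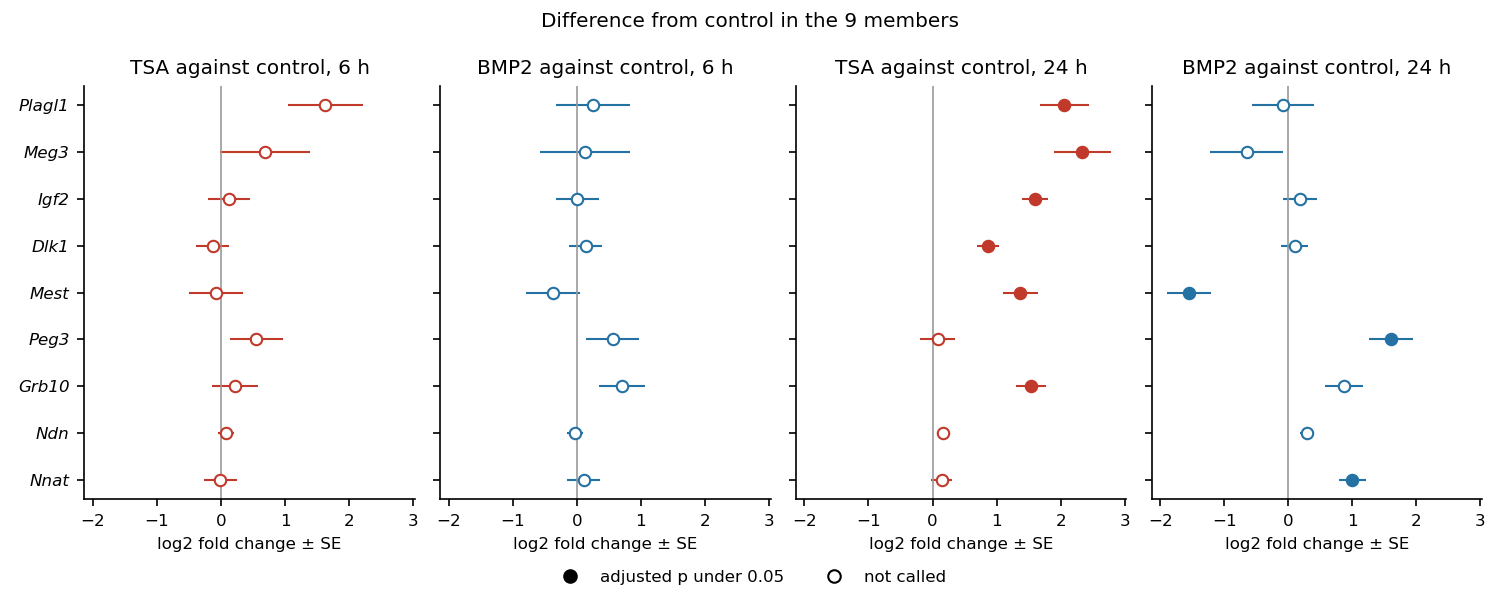
Log2 fold change against control (points) with its standard error (lines) for the 9 genes in 4 comparisons; filled points have an adjusted p under 0.05. In the TSA comparison at 24 h 6 genes are filled to the right of 0, and in the BMP2 comparison at 24 h Peg3 and Nnat are filled to the right and Mest to the left.

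Set directly against each other at 24 h, TSA and BMP2 arrays differed in 7 of the 9 members, beside 38.4% of all genes. Leaving out Igf2 and Dlk1, which entered the tests through this TSA group alone, 5 of 7 were called. Igf2 (1.42), Dlk1 (0.76), Meg3 (2.99), Plagl1 (2.14) and Mest (2.93) were higher with TSA, and Peg3 (-1.52) and Nnat (-0.86) were lower, on the log2 scale. Without BMP2 24 h replicate 2 only 3 of the 9 were called, and without replicate 1 only 4. At 6 h 0 of 9 were called in this comparison, with 1 (Plagl1) at an unadjusted p under 0.05, beside 28.0% of all genes. The BMP2 effect did not differ between 24 h and 6 h for any member (0 of 9 called, 2 at an unadjusted p under 0.05, Mest and Nnat), beside 0.775% of all genes.

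A group of arrays stood apart within the 24 h set. Xist, the RNA of the inactive X chromosome in female cells, had 2086 and 1548 on control replicates 5 and 6 and 1225 and 703 on the BMP2 arrays of 24 h, and between 18.4 and 75.5 on the others. The labels do not give this split, and every BMP2 array of 24 h and no TSA array fell on its high side. Within the high side, Peg3 had 2821 and 2228 with BMP2, against 1198 and 1190 on control replicates 5 and 6, and Mest had 520 and 444 with BMP2 against 1287 and 770. Nnat had 8065 and 8050 with BMP2 against 4634 and 4989, and Grb10 had 722 and 796 against 512 and 328. The groups did not overlap in 7 of the 9 members (these 4 with Ndn, Dlk1 and Igf2) and overlapped in Plagl1 and Meg3, beside 55.5% of all genes that did not overlap. With a term for this split the BMP2 differences at 24 h were 1.05 for Peg3 (adjusted p = 0.0732) and 0.74 for Nnat (0.0686) on the log2 scale, and Mest decreased by 1.00 (0.0998), none of which passed by limma, so 0 of 9 members stayed called, beside 11.1% of all genes. The part of the split in these 3 results was otherwise not tested. In the comparison of TSA with BMP2 at 24 h, Mest alone stayed called with the term. The 3 BMP2 calls also rested on both arrays, because Peg3 without BMP2 replicate 1 had an adjusted p of 0.0868, Mest without replicate 2 had 0.0839, and Nnat without either had 0.0568 and 0.0523 by limma.

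TSA and control arrays of 24 h with the same replicate number deviated together from their group means, with correlations of 0.41, 0.57, 0.44 and 0.28. TSA replicate 4 correlated more with control replicate 5 than with control replicate 4, so that last pair is not settled. Within the 4 same-numbered pairs all 9 members were higher with TSA in every pair by their brightest probe sets, beside 28.3% of all genes. Igf2 and Dlk1 lend no support to that count, as they were tested through this TSA group alone. The lowest ratio was only 1.01 for Ndn and 1.03 for Nnat. A dimmer Ndn probe set was lower with TSA in pair 1, with 2574 against 2581. By its brightest probe set Peg3 had 1309 against 1012, 1036 against 804, 613 against 456 and 632 against 516 (TSA against control). That ratio stayed between 1.23 and 1.34 while the level changed more than that between pairs. A dimmer tested Peg3 probe set had 1528 against 505, 751 against 460, 285 against 229 and 292 against 285, without such a steady ratio. The other dimmer one had 388 against 351, 366 against 223, 179 against 156 and 209 against 178. With the replicate number as a block, and the BMP2 arrays of 24 h left out, the Peg3 difference was 0.35 (SE 0.07, adjusted p = 0.00207, limma) and that of Nnat 0.27 (SE 0.06, adjusted p = 0.00515, limma), both called. Ndn was 0.14 higher with an adjusted p of 0.0528 in that fit. These calls stand beside 53.0% of all genes called in the same fit. With the BMP2 arrays of 24 h kept in the block fit, Peg3 (adjusted p = 0.0017) and Ndn (0.0486) were called and Nnat was not (0.0546, limma). The ratio in the pairs ran from 3.15 to 7.55 for Meg3, from 2.65 to 3.76 for Plagl1, from 2.55 to 3.92 for Grb10 and from 1.71 to 2.75 for Mest.

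**Figure D4:**
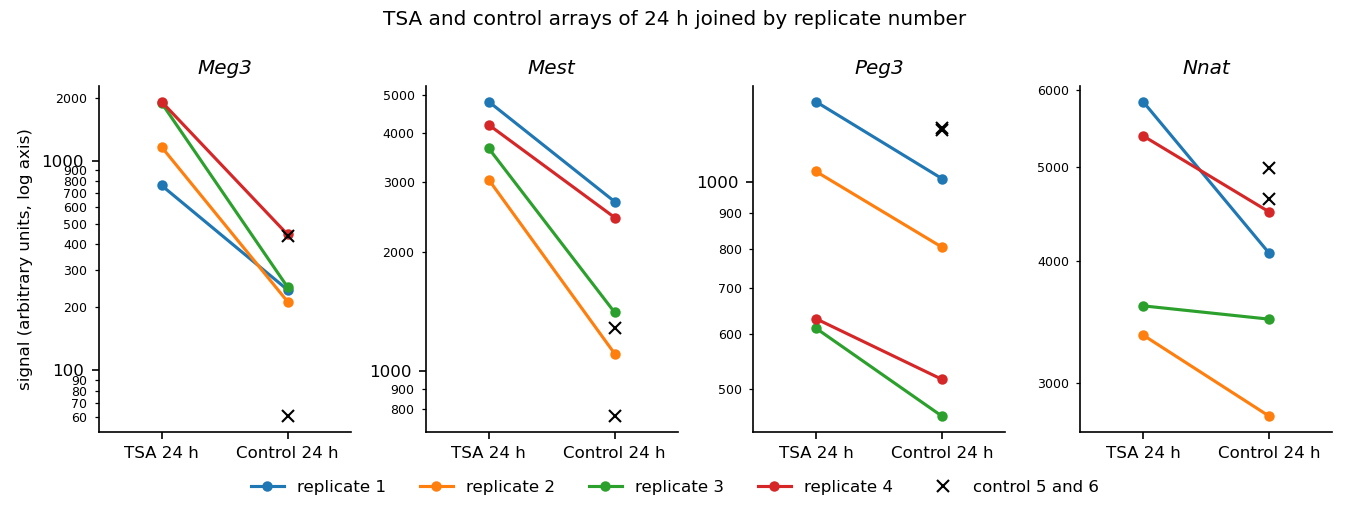
Signal (arbitrary units, log axis) of Meg3, Mest, Peg3 and Nnat on TSA and control arrays of 24 h, with lines joining arrays of the same replicate number and crosses for control replicates 5 and 6, which have no TSA array of their number. In every pair the TSA point lies above the control point. For the brightest Peg3 probe set, shown here, the lines are close to parallel, with ratios of 1.23 to 1.34. The dimmer tested Peg3 probe sets had no such steady ratio.

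Over the 18 arrays Pearson r on the log2 scale between the 6 genes that rose with TSA at 24 h, which share that treatment, ran from 0.38 (Grb10 and Mest) to 0.81 (Meg3 with Dlk1 and with Mest), with a median of 0.74 over the 15 pairs. These 6 genes were taken for rising on the same TSA arrays, which favours positive r between them. Their r values are a description only. Peg3 had -0.52 with Mest and 0.60 with Nnat. The tested genes most like each member over these arrays were Dlc1 for Plagl1 (r = 0.956), Fryl for Peg3 (0.933), Ngrn for Meg3 (0.955), Ptgfrn for Dlk1 (0.944), Rnase4 for Igf2 (0.959), Tmem255a for Grb10 (0.864), Ak3 for Mest (0.935), Fbxl16 for Ndn (0.922) and Mir9-3hg for Nnat (0.901). Each is the highest r among the tested genes and a description only.

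Of 58 other imprinted genes listed, 50 had a probe set of their own and 31 were tested. Of these, Zdbf2, Rian, Asb4 and Ascl2 averaged under 100 in both control groups, so they were tested only through a treated group and their tests there are no support for a difference. With TSA 7 rose and 8 fell at 24 h, with a median log2 fold change of 0.01, beside 18.6% of all genes called higher and 20.2% lower. At 6 h 2 rose and 3 fell, beside 14.5% and 11.8%. With BMP2 7 rose and 3 fell at 24 h, beside 9.98% and 7.76%, and 1 rose at 6 h, beside 1.15% and 0.643%. These counts include genes tested only through a treated group, such as Zdbf2. The TSA genes with the smallest p were Zdbf2, 1.33 higher and tested through the TSA groups alone, Qpct (0.98, adjusted p = 7.2e-05) and Inpp5f, a phosphoinositide phosphatase (0.60, 3.2e-04), which rose at 24 h, and Ddc, the aromatic amino acid decarboxylase (-2.29, 2.0e-04), Gnas, the stimulatory G protein subunit (-0.16, 0.0157), and Klf14 (-0.71, 0.0185), which fell. At 6 h Zdbf2 was 1.13 higher with TSA, which raised Inpp5f (0.50, adjusted p = 0.0324) and lowered Casd1 (-1.13, 4.2e-04), Ppp1r9a (adjusted p = 0.00234) and Sgce (-0.92, 0.00787), 3 neighbours in a cluster on chromosome 6, by limma. The largest rise in the list was that of Cdkn1c, a maternally expressed cyclin-dependent kinase inhibitor, with BMP2 at 6 h, where the signal was 1758 ± 504 against 192 ± 18.5 in controls (mean ± SD, n = 2 each). Its log2 fold change with BMP2 was 2.97 at 6 h (adjusted p = 8.2e-04) and 1.61 at 24 h (0.00299), while with TSA at 24 h it fell by 0.84 (0.0189). With BMP2 at 24 h Blcap (0.73, adjusted p = 0.00319) and Gnas (0.26, 0.00676) also rose, and Ube3a, a ubiquitin ligase (-1.04, 0.00877), Klf14 (-1.03, 0.0169) and Gatm, a creatine synthesis enzyme (-0.89, 0.0191), fell.

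The list also holds genes that lie beside a member, named here for their position after their values were seen. Those nearest Igf2, 300 to 847 kb away (Ascl2, Cd81, Tssc4, Cdkn1c and Nap1l4), are not set against it here. Rian, 32.2 kb from Meg3 and a maternally expressed non-coding RNA too, had 179 ± 124 with TSA at 24 h against 45.5 ± 41.5 in controls (mean ± SD, n = 4 and 6). It entered the tests only through this TSA group, so its log2 difference of 1.37 is given as a value. Copg2, which overlaps Mest at its end, rose by 0.45 with TSA (adjusted p = 0.00763, limma), whereas Klf14, 208 kb from Mest, fell with both agents at 24 h. Mest fell with BMP2, and the Copg2 difference there was -0.16 (adjusted p = 0.496, limma). Ddc, 32.4 kb from Grb10, fell with TSA to 65.9 ± 31.96 against 490 ± 284 in controls while Grb10 rose. Blcap, whose span contains Nnat, rose with BMP2 at 24 h as Nnat did, and with TSA its difference was 0.15 (adjusted p = 0.344, limma). Mkrn3, 67.7 kb from Ndn, fell by 0.32 with TSA (adjusted p = 0.0195, limma), where Ndn did not pass.

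**Figure D5:**
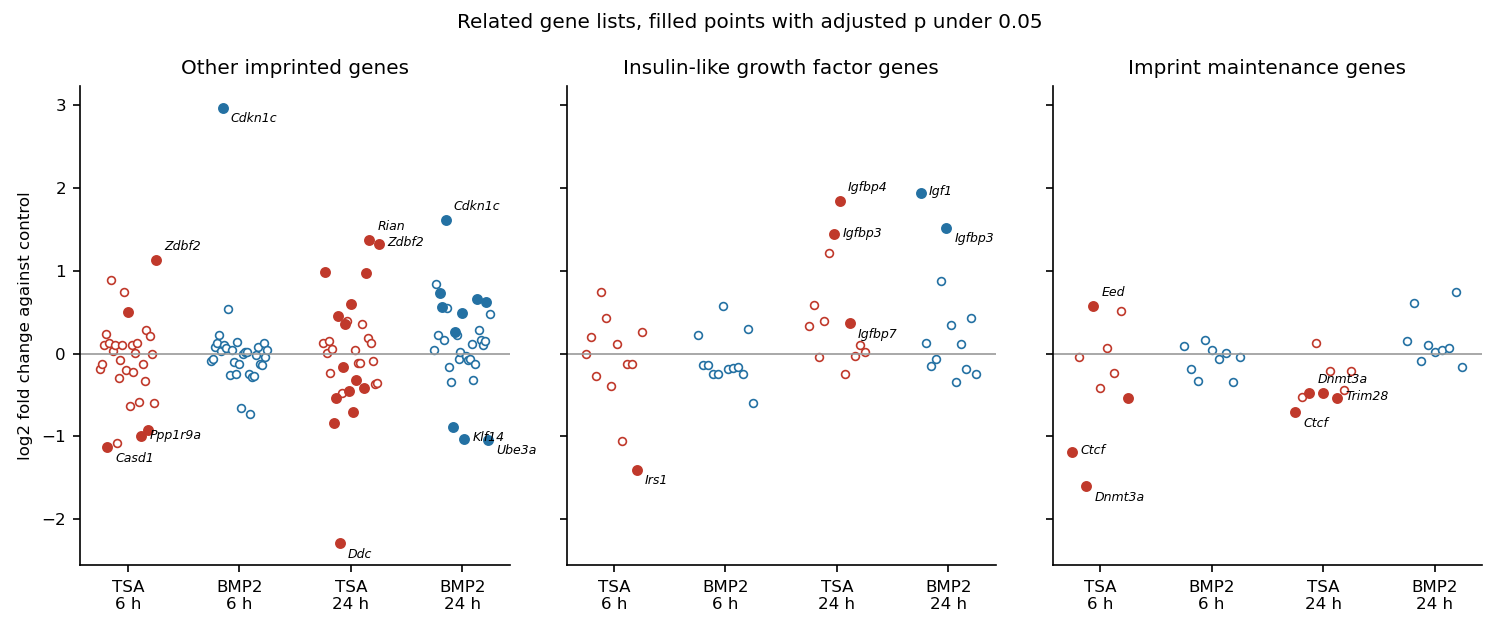
Log2 fold change against control of the tested genes of 3 lists (31 other imprinted genes, 12 insulin-like growth factor genes and 9 imprint maintenance genes) for TSA and BMP2 at 6 h and 24 h; filled points have an adjusted p under 0.05 and up to 3 with the largest change are named per column. Cdkn1c stands highest with BMP2 at 6 h (2.97), and the 4 called imprint maintenance genes of TSA at 24 h all lie below 0.

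Of 16 genes of insulin-like growth factor signalling, 12 were tested, Igf1 and Igfbp7 only through treated groups, since both averaged under 100 in the control groups, and their tests there are no support for a difference. With TSA at 24 h the binding proteins Igfbp4 (1.84, adjusted p = 1.3e-04) and Igfbp3 (1.44, 6.2e-04) rose, Igfbp7 was 0.37 higher, and 0 fell, with a list median of 0.35. Over all genes tested, 18.6% were called higher and 20.2% lower there. With BMP2 at 24 h Igf1, the other IGF ligand, averaged 203 ± 161 against 21.5 ± 3.05 in controls (mean ± SD, n = 2 and 6), a log2 difference of 1.94. It was tested through this group alone, so it had to differ there. Igfbp3 rose by 1.52 (adjusted p = 0.00516), and at 6 h 0 of 12 passed by limma. At 6 h TSA lowered Irs1, a substrate of the insulin and IGF1 receptors (-1.40 on the log2 scale, adjusted p = 0.0135) and raised none. The receptors did not pass in the TSA comparison at 24 h, with differences of 0.59 for Igf1r (adjusted p = 0.0738) and 0.39 for Igf2r (0.101). Both were named after their values were seen.

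Of 14 genes that set or keep imprints, 9 were tested. TSA at 6 h lowered Dnmt3a, the DNA methyltransferase that sets germ line imprints (-1.60, adjusted p = 3.7e-05), Ctcf, the insulator protein of the H19 and Igf2 locus (-1.19, 2.8e-04), and Zfp445 (-0.54, 0.0093), and raised Eed (0.57, 0.00195), by limma. At 24 h it lowered Ctcf (-0.71, 1.9e-04), Trim28, the corepressor of imprint-keeping zinc finger proteins (-0.54, 8.4e-04), and Ezh2 (-0.47, 0.00385), as well as Dnmt3a (-0.48, 0.00461). The list median at 24 h was -0.47. Over all genes tested, TSA calls were 14.5% higher and 11.8% lower at 6 h, and 18.6% and 20.2% at 24 h. With BMP2 0 of 9 passed at either time, beside 1.15% higher and 0.643% lower at 6 h, and 9.98% and 7.76% at 24 h.

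Markers of the labelled cell type were present, with 7 neural precursor genes tested, all averaging 100 or more in every group except Gsx2 in both BMP2 groups, and a summed signal of 13158 to 19727 over all arrays. With TSA 2 of the 7 fell at 6 h, and 2 rose (Nes and Vim) and 2 fell (Dlx1 and Hes5) at 24 h, whereas 0 passed with BMP2. Over all genes tested, TSA calls were 14.5% higher and 11.8% lower at 6 h, and 18.6% and 20.2% at 24 h. Those of BMP2 were 1.15% and 0.643% at 6 h, and 9.98% and 7.76% at 24 h. The marker counts of this paragraph stand beside these shares. Oligodendrocyte lineage markers moved with both treatments at 24 h, with 6 of 8 lower with each. Their summed signal was 14033 to 20917 with TSA and 11175 to 11739 with BMP2, against 25353 to 35271 in controls. Neuron markers, 3 of which averaged under 100 in both control groups, had 2 of 6 higher and 2 lower with TSA and 2 higher with BMP2 at 24 h, and astrocyte markers had 2 of 6 lower with TSA and 3 lower with BMP2. Igf2 is also known from meningeal and vascular cells. The summed signal of 8 meningeal fibroblast markers was 201 to 256 with TSA at 24 h against 125 to 180 in controls, with 1 tested (Col1a2, 118 with TSA at 24 h against 71.4 in controls, tested through that group alone) and the rest under 100 in every group. Of 6 mural markers 2 were tested, of which 0 passed with TSA and 1 (Pdgfrb) fell with BMP2 at 24 h (-1.98, adjusted p = 0.0128, limma), and choroid plexus markers (2 of 6 tested) passed with neither agent. Of 6 endothelial markers 1 was tested, Kdr, which averaged 133 with TSA and 280 with BMP2 at 24 h against 90.9 in controls and passed the minimum only in treated groups. The summed endothelial signal was 165 to 231 with TSA and 315 to 364 with BMP2, against 118 to 175 in controls. Microglia and erythroid markers reached a mean of 100 in no group. The part of these cell types in the members' differences was not tested.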

How the data were processed

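Deposited values were linear signal intensities per probe set. The authors' methods name dChip with quantile normalization, whereas the submitters' processing notes name MAS5, with no version, and which of them made the deposited intensities is not given in the sources used here. All 18 arrays were quantile-normalized again, 32 was added and log2 taken. Control probe sets (64) were left out, and a probe set entered the tests where any group averaged 100 or more. A single limma fit (limma 3.58.1, R 4.3.3) of the 6 groups with a trended prior gave 9 comparisons. p-values were adjusted by Benjamini-Hochberg within each, with calls under 0.05. The platform table paired 34958 probe sets with 1 gene, 932 with several and 9211 with none, and genes were counted by their brightest probe set. The fit was tested on simulated data. No array counts or depths exist, and the number of arrays limits the precision. The 10 members and all gene lists were chosen with earlier results of these data known. Genes named from a list were up to 3 in each direction with the smallest adjusted p, and the 3 most alike genes by Pearson r over 18 arrays were sought for each member. Replicate numbers, taken from the labels, paired TSA with control arrays at 24 h, where all 4 same-numbered pairs had residual correlations over 0.1. TSA replicate 4 nonetheless correlated most with control replicate 5. Same-numbered arrays correlated by 0.57 to 0.71 at 6 h (2 pairs each) and by -0.18 to 0.00 for BMP2 at 24 h, which did not settle a pairing. Of the 24 h control arrays, BMP2 replicate 1 correlated most with replicate 5 and BMP2 replicate 2 with replicate 6. Both of those controls had high Xist too. Alternatives were other normalizations, pseudocounts of 16 and 64, other filters and probe set rules, the authors' criteria (over 2-fold, a difference over 100 and a p under 0.1), a replicate block, a term for arrays with high Xist, and leaving out each array. Promoter windows and positions came from RefSeq (GRCm38.p6), which matched 9 members for windows.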

Additional observations from a re-analysis of the deposited data

Results flagged for a closer look

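The difference from control of Igf2 with TSA was larger at 24 h than at 6 h by 1.48 on the log2 scale (SE 0.39, adjusted p = 0.0257, limma). Igf2 entered the tests only through its mean with TSA at 24 h, so the direction was set by that minimum, and the p-value is no support for it. Its signal was above every control array of the same time on 4 of 4 TSA arrays of 24 h and 2 of 2 of 6 h. Its signals were near the dim end of the array outside TSA 24 h, and the call was lost without any of the 4 TSA or control arrays of 6 h. No array stood apart from its group in any of 18 checks of the members in groups of 4 or 6 arrays, where chance would flag about 1 in 20.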

How the results depend on the processing

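No called member difference changed sign under any alternative. The 6 TSA calls at 24 h held in 20 of 20 alternatives each, beside the authors' criteria, by which 5 were called. For Igf2 and Dlk1, tested through this TSA group alone, that is no support, which leaves Meg3, Plagl1, Grb10 and Mest. The TSA count reached 8 in both block fits, by Peg3 with Ndn in the full one and by Peg3 with Nnat where the BMP2 24 h arrays were left out. At 6 h the TSA count of 0 became 2 with only the groups compared, 2 with the replicate block, 3 with the block and the BMP2 24 h arrays left out, 1 with the term for high Xist and 1 by the authors' criteria. Plagl1 was the gene called by those criteria and with the term, and was among those called in the other 3 fits. The BMP2 count at 6 h (0) became 2 in both block fits. At 24 h the BMP2 count of 3 became 5 with the block and 0 with the term for high Xist, and ran from 1 to 5 when an array was left out (1 without either BMP2 array, 5 without control replicate 5). The full block fit joined BMP2 arrays of 24 h to arrays of the same number, with which they correlated by only -0.18 to 0.00. Its counts in every comparison with BMP2 at 24 h therefore lend no support. TSA against BMP2 at 6 h (0 called) gave 1 with only the groups compared, 2 in both block fits and 1 with the term. At 24 h (7 called) it gave 8 with only the groups compared, 9 with the block, 6 with the mean of all probe sets, 1 with the term and 3 to 7 when an array was left out (3 without BMP2 replicate 2, 4 without replicate 1). For the TSA effect at 24 h minus 6 h (1 called) the count was 2 with deposited signals, 2 with median scaling, 2 with a pseudocount of 64, 2 with the mean of all probe sets, 4 with the block and 5 with the block and the BMP2 24 h arrays left out, and ran from 0 to 3 when an array was left out (0 without any TSA or control array of 6 h, 3 without control 24 h replicate 1 or 4, 2 without replicate 6). The BMP2 effect at 24 h minus 6 h (0) gave 4 with the block. Between control times (0) the count was 5 with the block, 6 with the block and the BMP2 24 h arrays left out, 1 with the term, and 0 to 1 when an array was left out (1 without control 24 h replicate 6). The share of all genes called was taken in the block fit without the BMP2 24 h arrays for TSA at 24 h (53.0%). It was also taken with the term for high Xist for BMP2 at 24 h (11.1%). The other member counts under alternatives have no such share beside them, so their changes are not results about the members alone. The causes were not tested. BMP2 24 h and both 6 h comparisons rest on 2 arrays per treated group, and signals under 100 (Igf2 and Dlk1 outside TSA 24 h) have little resolution.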
